A study of Gallus gallus with 88 samples.

Results

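The chickens described here are the 8 broilers sampled at day 35 (D35) after their eggs had been kept warm in the early window of muscle fibre formation, embryonic days (ED) 7–10, a treatment named H10. Members were all arrays that the records label as mature leg samples of H10, 8 of the 88 arrays of the series, and they were compared with all 8 mature controls. The H10 eggs were kept at 38.8 °C during ED7–10 and at 37.8 °C otherwise. The controls stayed at 37.8 °C throughout, and 2 of them carry the label of the early window (C10) and 6 that of the late window, ED10–13 (C13). Further D35 chickens had been kept at 38.8 °C in the late window (H13), at 36.8 °C in the early window (L10) or at 36.8 °C in the late window (L13), 8 chickens each. All were broilers from a commercial line, hatched, reared in a barn on the same diet and sampled from the hind muscle, M. gastrocnemius, with 1 animal per array. By the study's methods H10 and H13 eggs also received a higher relative humidity in their window, so temperature and humidity cannot be told apart. The arrays measured mRNA by hybridization, and every value is a normalized log2 signal from 1 chicken. The p-values therefore set differences against the spread between chickens. Chickens of a treatment shared incubation batches, and the spread between incubations was not estimated.

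Muscle fibres of birds form before hatch, from myoblasts that multiply, fuse and take on a fast or slow contractile type, and fibre number is set in that time. After hatch the muscle grows mainly by enlargement of these fibres, fed by satellite cells and supported by a collagen matrix. Incubation temperature in the fibre-forming windows acts on the embryo directly, and a sample at slaughter age shows what of the gene expression still differs weeks after the treatment has ended.

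The D35 array medians lay between 6.64 and 6.98, and those of H10 between 6.69 and 6.93. In the D35 chickens, 23 background control probe sets had a median of 5.33 and a 95th percentile of 9.49, and 2236 of the 20706 probe sets tested had a higher mean than that percentile. Most genes named below lie under it, where small differences may be limited by signal. Of the probe sets, 12300 carried 1 gene symbol, 256 several and 8150 none. The muscle label held, with ACTA1, the skeletal actin, at a mean of 14.33, titin (TTN) at 13.57 and the fast troponin gene TNNT3 at 13.43, each differing from the controls by 0.03 or less. The red and slow fibre markers MB at 8.48, TNNI1 at 7.66 and TNNC1 at 8.49 lay under the 95th percentile of the background. They differed from the controls by 0.15, −0.62 and −0.30. All other muscle markers measured lay above that percentile. The animal numbers in the order of the records formed 2 ascending series, whose meaning is not stated. By the methods each treatment was incubated in 2 repeated batches, and whether the series are those batches is not given. All H10 and H13 chickens and 4 controls (29, 30, 77 and 90) stood in the first, called the H10 number series here, and all L10 and L13 chickens and the other 4 controls (68, 70, 81 and 83) in the second. Both C10 controls, 30 and 90, stood in the first series, and all 4 controls of the second carry the C13 label. The sets of controls used below thus overlap, and control label and number series are not separated. Signals of 18 chromosome W probe sets were high in 4 H10 chickens (3, 11, 13 and 15) and in 4 controls and low in the others, and by the methods the animals were balanced for sex. No probe set was called for a difference of the H10 effect between the chickens with high and low W signal, where 520 had an unadjusted limma p at or below 0.05 (2.51%).

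The first comparison asked whether warm early incubation left a difference in hind muscle at D35. No probe set passed an adjusted p of 0.05 for H10 against the controls (0% of those tested), and the smallest limma adjusted p was 0.780. At an unadjusted p of 0.05 or less, 586 probe sets differed (2.83%), fewer than the 1035.3 that this threshold gives without any difference. Of these, 408 were lower in H10 (1.97% of those tested) and the rest higher (0.86%), so that 30.4% of them were higher. That share depended on scaling, at 53.1% after quantile normalization and 50% after centring of each array on its median. The median difference over all probe sets was −0.022, with 8728 probe sets above 0 and 11970 below. No probe set was higher in every H10 chicken than in every control, and 1 was lower in every one (0.00483%). All differences from the controls given below are therefore values that did not pass the test.

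Against the 4 controls of the H10 number series alone, again none passed (0%), with a smallest limma adjusted p of 0.937. The unadjusted count was 544 (2.63%), and here 365 were higher (1.76%) and the rest lower (0.864%), with 11473 probe sets above 0 and a median of 0.021. In 23 probe sets (0.111%) every H10 chicken lay above each of these 4 controls, and in 13 (0.0628%) below. The direction that most probe sets took thus turned with the choice of controls, so most named genes and lists are given against all controls first and within the H10 number series second.

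The smallest p-values among lower genes belonged to transcripts of liver plasma proteins. FGG, the fibrinogen gamma chain, read 0.00, 2.79, 0.00, 1.07, 0.00, 1.23, 2.67 and 1.73 in the 8 H10 chickens. It read 2.86, 3.52, 2.57 and 3.20 in the controls of the H10 number series and 8.91, 7.27, 9.93 and 9.99 in the other 4 controls. The H10 chickens and the 4 controls of their series were thus all below the background median, and only the other controls were high. The difference was −4.85 ± 1.06 (SE; limma adjusted p = 0.780) against all controls and −1.85 against those of the H10 number series.

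ALB, serum albumin, read 3.68 to 6.47 in H10 with a median of 4.43, then 4.27, 5.49, 4.56 and 4.83 in the controls of the same series and 12.62, 11.45, 12.58 and 12.86 in the others. H10 overlapped with the former and lay far below the latter. The difference was −3.83 ± 1.13 (SE) against all controls and −0.03 within the series. The other fibrinogen chains followed, FGA at −4.41 against −1.31 within the series and FGB at −4.06 against −1.14. Plasminogen (PLG) was at −3.74 and −1.13, the tyrosine-degrading enzyme TAT at −3.71 and −1.07, and antithrombin (SERPINC1) at −3.01 and −0.87. SULT6B1L, named as a sulfotransferase, was at −4.56 and −0.08, and the avian beta-defensin AvBD9 at −3.16 and −0.70, both without a place on the liver list described next.

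A list of liver genes, chosen after the values were seen, held 54 genes of which 40 were measured. Of these, 37 were lower in H10 than in all controls, with a median of −1.641 that stayed below 0 after quantile normalization and centring, beside −0.022 over all probe sets. Within the H10 number series 27 of the 40 were lower, with a median of −0.081. The mean of the 40 genes ranged from 3.86 to 4.56 in H10, from 4.31 to 4.60 in the 4 controls of that series and from 6.49 to 8.21 in the other 4. In 30 of the 40 genes each of the other 4 controls lay above every H10 chicken. How many of all probe sets did so was not counted, and the choice of the list after the values were seen favoured such genes. The same mean was 6.07 to 9.94 in L10 and 5.97 to 9.14 in L13, which belong to the second series, and 4.21 to 6.27 in H13. Between both sets of controls 37 probe sets passed the limma test (0.179%), 36 of them lower in the H10 number series and 17 of them on the liver list. That test was fitted on the 8 control arrays alone, with W signal class as a covariate. The source of the liver transcripts in these muscle samples was not tested.

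**Figure D1:**
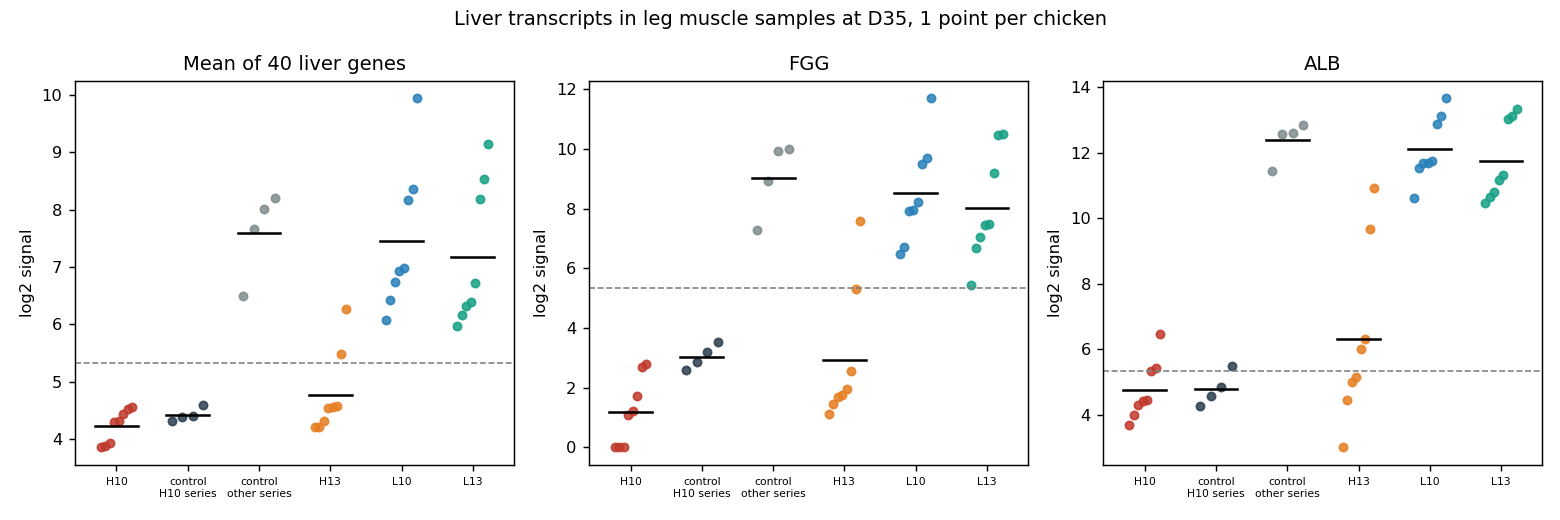
Liver transcripts in each D35 chicken as log2 signal (1 point per chicken, black bars for group means, dashed line for the background median of 5.33), as the mean of 40 liver genes, FGG and ALB. The 8 H10 chickens and the 4 controls of the H10 number series lie low, while the other 4 controls lie above every H10 chicken in all 3 panels.

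Among the higher genes, TMLHE had the smallest p. It encodes the hydroxylase that starts carnitine synthesis, and carnitine carries fatty acids into mitochondria. Its lowest, median and highest values were 8.34, 8.75 and 8.95 in H10 and 8.04, 8.31 and 8.68 in the controls. The median was 8.78 in H13 and 8.64 in L10, so a higher level was not particular to H10. H10 and controls overlapped, though all 8 H10 chickens were above the control mean. The difference was 0.36 ± 0.10 (SE; limma adjusted p = 1, unadjusted 0.00102) and 0.41 within the H10 number series.

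CHPF2, a chondroitin-polymerizing factor, read 5.83, 6.03 and 6.36 in H10 (lowest, median and highest) and 5.44, 5.76 and 5.91 in controls. Every H10 chicken was above the 4 controls of its own series, which read 5.53 to 5.77, and the difference was 0.31 ± 0.10 (SE), or 0.36 within the series. POSTN, the matrix protein periostin, read 10.73, 10.96 and 11.52 in H10 and 9.66, 10.46 and 11.26 in controls. Controls 77, at 11.26, and 70, at 10.81, reached into the range of H10, and the difference was 0.59 ± 0.22 (SE), or 0.43 within the series. EMP1, a tetraspan membrane protein, read 8.38, 9.04 and 9.29 against 7.73, 8.20 and 8.91, a difference of 0.68 ± 0.23 (SE) and 0.80 within the series. CD55, which shields cells from complement, read 6.28, 6.44 and 6.86 against 5.66, 6.11 and 6.59, with 0.42 ± 0.15 (SE) and 0.64 within the series. Both overlapped with the controls.

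IDH3B, a subunit of the mitochondrial isocitrate dehydrogenase, read 11.02, 11.21 and 11.28 in H10 and 10.78, 11.02 and 11.14 in controls, a difference of 0.18 ± 0.06 (SE), or 0.11 within the series. NDUFA2, a complex I subunit, differed by 0.29 and by 0.15 within the series. RPL9 of the large ribosomal subunit read 8.64, 8.77 and 9.18 against 8.30, 8.59 and 8.76, with a difference of 0.27 ± 0.09 (SE) and 0.25 within the series. RPL35A was at 0.21 and 0.27. All 4 overlapped between H10 and controls. The last higher genes that the rule named were LOC396480 at 0.88 and 0.65 and a probe set annotated MIR1570 at 1.49 and 1.84. Their H10 values ran from 3.31 to 4.11 and from 0.82 to 4.14, all below the background median.

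DNASE1L3, a secreted nuclease, had a value that moved with the choice of controls. It read 7.70, 8.08 and 8.45 in H10, then 7.24, 7.04, 7.65 and 6.82 in the controls of the same series and 7.75, 8.37, 7.67 and 7.99 in the others. All H10 chickens were above the first 4 and overlapped with the second 4. The difference was 0.47 ± 0.18 (SE) against all controls and 0.85 ± 0.19 (SE) within the series, where the unadjusted limma p was 8.52e-05 and the adjusted p did not pass.

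The other lower genes that the rule named were ASMTL, STAP1 and a probe set annotated MIR1738. ASMTL read 6.96, 7.26 and 7.55 in H10 and 7.48, 7.63 and 7.89 in controls, with a small overlap and all 8 H10 chickens below the control mean. Its difference was −0.39 ± 0.10 (SE; limma adjusted p = 0.971) and −0.29 within the series. STAP1, an adaptor protein of lymphocyte signalling, read 4.67, 4.98 and 5.23 against 4.98, 5.45 and 5.78. It differed by −0.41 ± 0.12 (SE) against all controls and by −0.41 within the series, so the choice of controls did not move it. The probe set annotated MIR1738 was at −0.53 and −0.51. Medians in H13 and L10 were 7.44 and 7.32 for ASMTL and 6.88 and 7.16 for MIR1738, against 7.63 and 7.38 in controls. Lower ASMTL and MIR1738 levels were thus not particular to H10. For STAP1 they were 5.02 in H13 and 5.45 in L10, against 5.45 in controls.

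**Figure D2:**
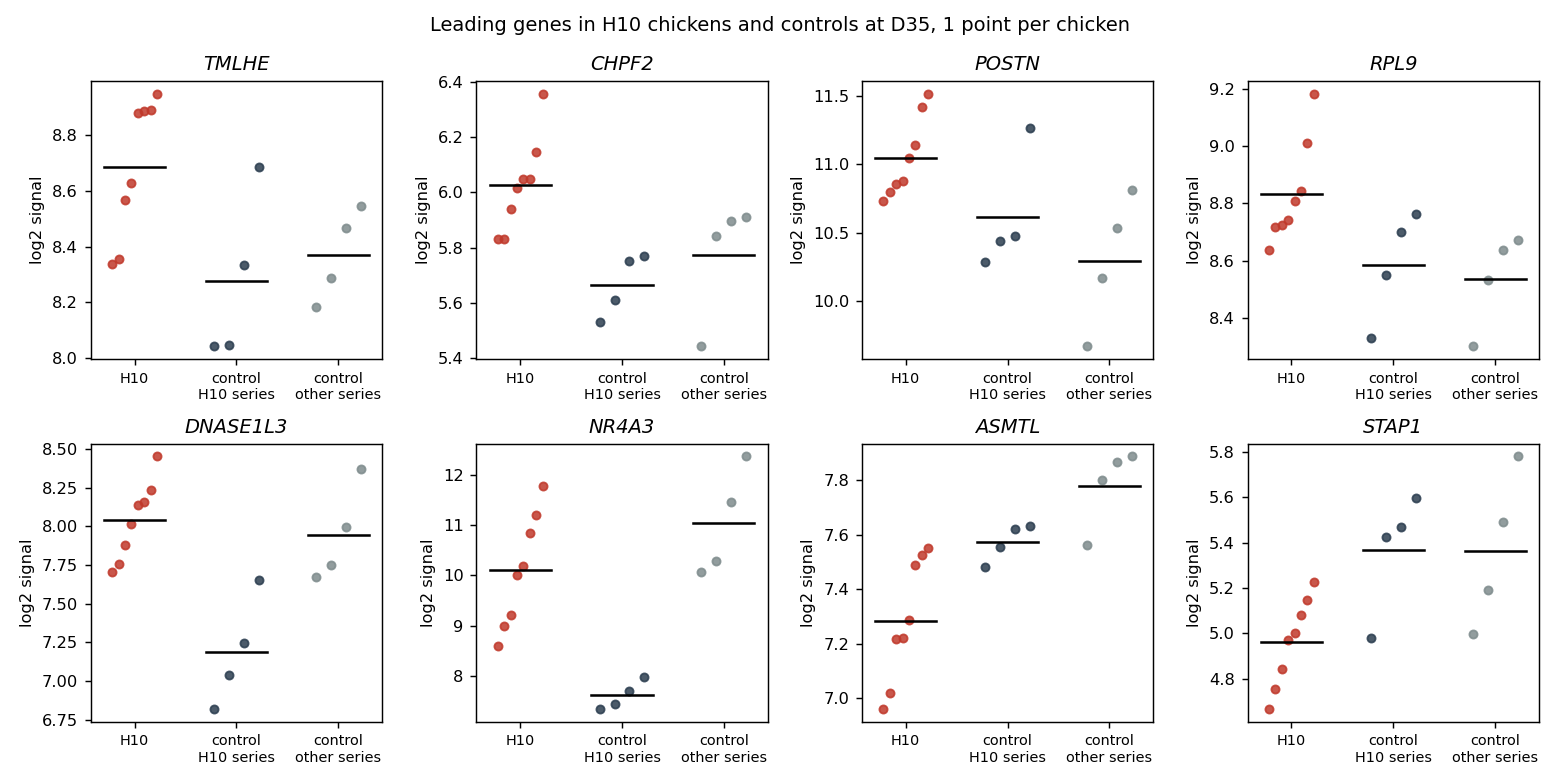
Log2 signal of 8 leading genes in the H10 chickens, the 4 controls of the H10 number series and the other 4 controls (1 point per chicken, black bars for means). The H10 means of TMLHE, CHPF2, POSTN and RPL9 lie above those of both sets of controls and the means of ASMTL and STAP1 below, whereas DNASE1L3 and NR4A3 of the other 4 controls overlap with the H10 values.

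Within the H10 number series, NR4A3 stood out, as seen after the values were examined. It encodes an orphan nuclear receptor that muscle switches on within hours of exercise or adrenergic stimulation. The H10 chickens read 11.77, 10.84, 10.00, 11.19, 10.18, 8.99, 9.21 and 8.60, and the 4 controls of their series 7.98, 7.45, 7.70 and 7.34. Every H10 chicken exceeded these controls, by a mean of 2.48 ± 0.60 (SE; limma unadjusted p = 0.000225). The other 4 controls read 10.29, 12.36, 11.45 and 10.06, as high as H10, and against all 8 the difference was 0.77 ± 0.63 (SE; unadjusted p = 0.228).

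Other genes with larger differences within the series, also chosen after their values were seen, were CILP, a matrix protein of cartilage and tendon, at 0.69 within the series and 0.28 against all controls, and RBM11, an RNA-binding protein, at 1.20 and 0.36. IGF1R, the receptor of insulin-like growth factor 1, was at 0.42 and 0.17. Every H10 chicken lay above the controls of the series in CILP, while RBM11 and IGF1R overlapped with them. The differences from all controls rested in part on 1 chicken, at 0.15 for CILP and 0.12 for RBM11 without control 30 and at 0.10 for IGF1R without H10 chicken 72. On the lower side, the unconventional myosin MYO1H was at −0.59 and −0.39, the synaptic vesicle protein SYT1 at −0.47 and −0.31, and the serotonin receptor HTR1E at −0.45 and −0.34. The lower genes kept more of their difference against all controls than NR4A3, RBM11 and IGF1R did.

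Genes of the extracellular matrix were mostly higher in H10. Of 32 measured genes on the fibroblast and matrix list, 25 were above 0 and 7 below, with a median of 0.099 beside −0.022 over all probe sets, and no gene of the list passed the test (0% of all probe sets did). The median was 0.110 after quantile normalization, 0.127 after centring and 0.116 within the H10 number series, where 26 were above 0. Against the 6 C13 controls it was 0.048 and against the 2 C10 controls 0.235. Without control 30 it was 0.052. The fibrillar collagen genes COL1A1 and COL1A2 differed by 0.23 and 0.36 against all controls and by 0.12 and 0.08 within the series. THBS2, a matrix thrombospondin, was at 0.44 and 0.13. SERPINH1, the collagen chaperone of the endoplasmic reticulum, read 10.65, 10.84 and 11.08 in H10 and 10.50, 10.58 and 10.95 in controls, a difference of 0.22 (limma unadjusted p = 0.0431) and 0.19 within the series. Control 77 held the highest control value of POSTN, COL1A2 and SERPINH1.

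Tendon markers were higher in 6 of 7 genes, with a median of 0.176 against all controls and 0.054 within the series, above 0 under both scalings as well, and 0.089 without H10 chicken 66. FMOD, the collagen-binding proteoglycan fibromodulin, ran from 7.48 to 10.20 in H10 and from 6.11 to 9.74 in controls. Basement membrane genes had a median of −0.058 (5 above 0 and 11 below), which turned to 0.011 within the series, and cartilage markers one of −0.050. The 6 smooth muscle and pericyte markers had a median of −0.119, with MYH11, the smooth muscle myosin, at −0.25, or −0.07 within the series.

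Genes of mitochondrial energy metabolism had medians slightly above 0 on the deposited scale, after quantile normalization and centring, and with each set of controls, but not in the chickens with high W signal. Of 54 respiratory chain and ATP synthase genes 42 were above 0, with a median of 0.057, and within the H10 number series 36 were, with 0.029. Of 60 genes of the mitochondrial ribosome and protein import 42 were above 0, with a median of 0.030 in both comparisons. Citrate cycle and fatty acid oxidation genes were above 0 in 20 of 30, with 0.045 and 0.063. The median was 0.012 without control 90 for citrate cycle genes and 0.015 without control 77 for mitochondrial ribosome genes. In the chickens with high chromosome W signal the medians were −0.018 for respiratory chain (22 of 54 above 0), −0.029 for mitochondrial ribosome (26 of 60) and −0.081 for citrate cycle genes (9 of 30), and in those with low W signal 0.134, 0.092 and 0.152. The unadjusted p was at or below 0.05 for NDUFS8, a complex I subunit, at 0.16 and 0.10, for TOMM7 of the outer membrane import pore, at 0.17 and 0.08, and for MRPL2 of the mitochondrial ribosome, at 0.39. MRPL2 read 9.12, 9.79 and 9.90 in H10 and 8.80, 9.26 and 9.91 in controls, with overlap, and kept 0.40 within the series. Against this, NDUFA1, also of complex I, was at −0.25 and −0.28 and CPT1A, an enzyme of mitochondrial fatty acid uptake, at −0.28 and −0.12. Cytosolic ribosomal protein genes were above 0 in 36 of 50 in both comparisons, with medians of 0.031 and 0.021, from RPS28 at 0.24 and RPL22 at 0.15 to RPS2 at −0.08. Their median was −0.010 without control 70, and it was 0.091 in the chickens with high W signal and −0.022, with 20 of 50 above 0, in those with low W signal.

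Cell cycle and DNA replication genes were mostly lower in H10. Of 39 measured, 32 were below 0, with a median of −0.130 (−0.099 after quantile normalization, −0.102 after centring), and within the H10 number series 27 were, with −0.091. KIF23, a kinesin needed to complete cell division, read 4.71, 5.49 and 6.08 in H10 and 5.49, 5.89 and 6.04 in controls. It differed by −0.39 ± 0.16 (SE; limma unadjusted p = 0.0186), or −0.28 within the series, and 7 of 8 H10 chickens were below the control mean. ASPM, a spindle protein, read 3.89, 4.88 and 6.10 against 5.08, 5.56 and 6.11, a difference of −0.59, or −0.46 within the series. PLK4, the kinase that starts centriole duplication, was at −0.24 and −0.19 and the kinetochore gene NUF2 at −0.30 and −0.25. The list median was −0.042 in the chickens with high W signal and −0.240 in those with low W signal. The levels of these genes are near the background median of 5.33.

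Leukocyte markers were below 0 in 28 of 35, with a median of −0.099 that stayed below 0 after quantile normalization (−0.068) and centring (−0.071) but was 0.088 within the H10 number series, with 19 above 0. Without control 68 it was −0.022. Their mean level was 6.63 to 7.04 in H10, 6.66 to 6.95 in the controls of that series and 6.87 to 7.81 in the others. The 4 list genes with the smallest p against all controls were also lower within the H10 number series, unlike the list. The controls of that series are part of all controls, so these comparisons are not independent. CD8A, the co-receptor of cytotoxic T cells, read 5.23, 6.30 and 6.41 in H10 and 6.21, 6.50 and 7.27 in controls, with overlap, a difference of −0.48 ± 0.18 (SE; limma unadjusted p = 0.012) and −0.35 within the series. CD8BP, its partner chain, was at −0.26 and −0.35, the T cell receptor kinase ZAP70 at −0.41 and −0.25, and the chemokine receptor CXCR4 at −0.26 and −0.23. In a bulk sample, fewer cells of a type and less RNA per cell cannot be told apart.

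Contractile genes differed little on the median. Of 18 fast fibre genes 10 were above 0, with a median of 0.005 that was −0.003 within the H10 number series, and MYH1C, a fast myosin heavy chain, was at 0.18 and 0.27. Of 17 slow fibre genes 6 were above 0, with a median of −0.056 under the deposited scale, below 0 under both scalings, and 0.030 within the series. It was −0.181 without H10 chicken 74 and 0.068 without 72. The slow troponin gene TNNI1 was at −0.62 with a standard error of 1.07, which exceeded the difference. Glycolysis and glycogen genes had a median of −0.008, which was 0.020 after centring. ENO2, an enolase, differed by −0.34 and by −0.39 within the series, and the gluconeogenic enzyme FBP1 by −0.83 and −0.25. The FBP1 difference was smaller within the series, as in the liver genes above, and whether it came from liver transcripts was not tested.

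Heat shock proteins and co-chaperones were above 0 in 24 of 48, with a median of 0.010 against all controls and 0.081 within the H10 number series. Lists of muscle proteolysis (0.002 and 0.096, with −0.004 after quantile normalization) and of chromatin modifiers (−0.018 and 0.085, with 0.010 after centring) also moved to the higher side with the controls of the same series. The adipocyte list did so most, from −0.043 with 5 of 18 genes above 0 to 0.201 with 14 above 0. Immediate early and glucocorticoid genes went from −0.015 (0.013 after centring) to 0.123, with FKBP5, a glucocorticoid-induced chaperone, at −0.53 and 0.21. Insulin and growth factor signalling went from −0.016 (0.012 after centring) to 0.066. UCP3, a mitochondrial carrier of muscle, was at −0.48 and −0.30 and RXRG, a retinoid receptor, at −0.17 and −0.28. In all, 15 of 34 list medians changed sign between all controls and those of the H10 number series. No list held a gene that passed the test in either comparison.

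**Figure D3:**
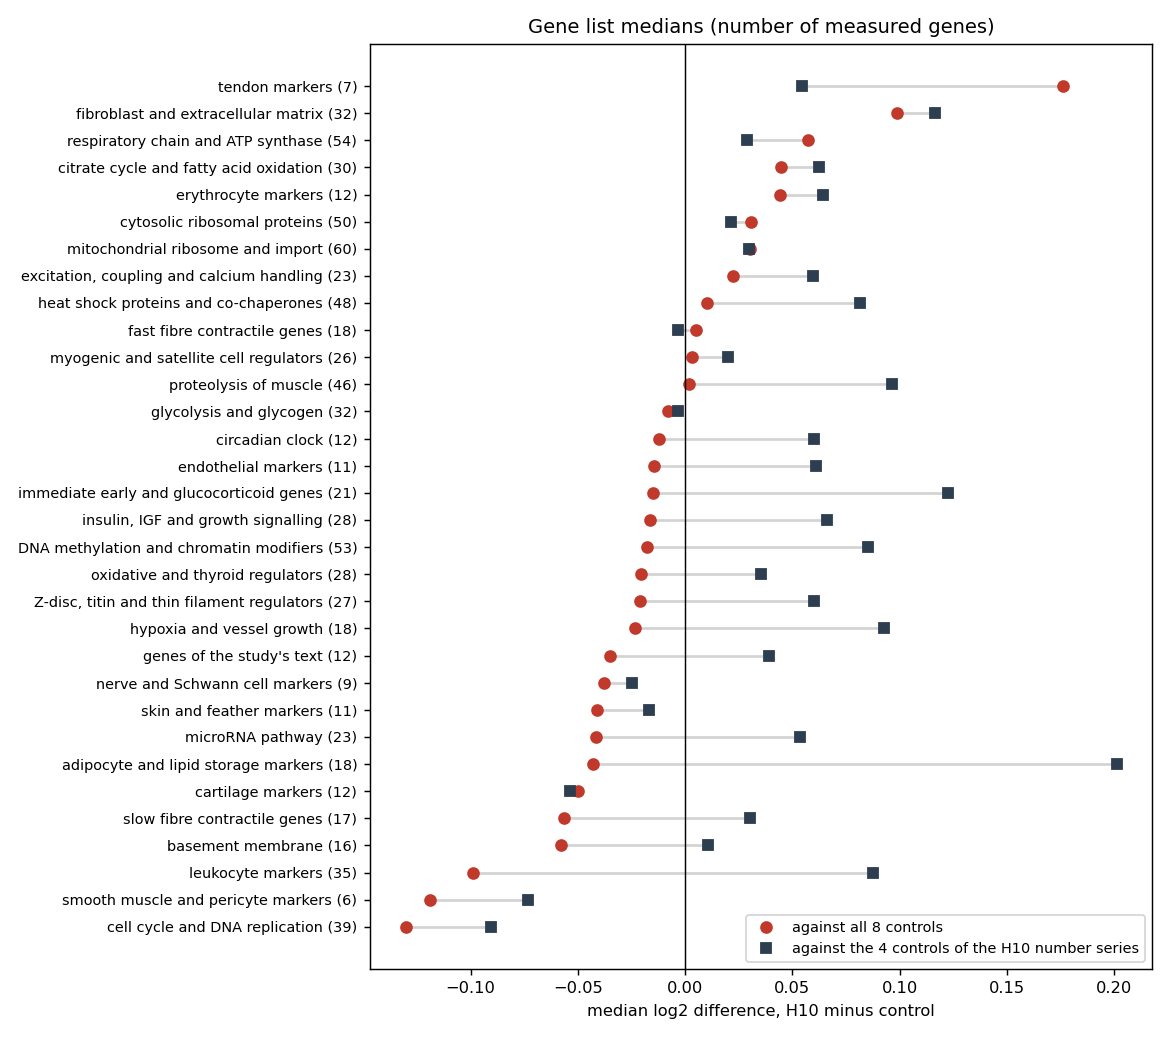
Median log2 difference of H10 minus control for 32 gene lists, with the number of measured genes, against all 8 controls (circles) and against the 4 controls of the H10 number series (squares). Matrix, tendon, mitochondrial and ribosomal lists lie above 0 and cell cycle genes below 0 with both sets of controls, while leukocyte and adipocyte markers change side.

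The study's text names genes of hind muscle after early warm incubation as targets of microRNAs, for embryos and not for D35. Of 14 symbols looked up, of which KMT2E and MLL5 are the same gene, 12 were measured. None passed the test here, 4 were above 0 and 8 below, and their median was −0.035 against all controls (below 0 under both scalings) and 0.039 within the H10 number series. The list came from the same study and is no independent evidence. SYK, a kinase of immune receptor signalling, read 4.83, 5.15 and 5.31 in H10 and 5.01, 5.35 and 5.60 in controls, a difference of −0.21, or −0.15 within the series, with all 8 H10 chickens below the control mean and overlapping groups. PLCB1, a phospholipase that releases inositol phosphates, was at −0.19, and at −0.32 within the series, where its unadjusted limma p was 0.0231. The other 10 ranged from −0.25 for MYH11 to 0.03 for the ubiquitin ligase scaffold CUL4B and the lipid phosphatase MTM1. ITSN1 was at −0.09, PLXNB2 at −0.08 and the cell cycle inhibitor CDKN1B at −0.05. KMT2E and PIK3R1, at −0.01 and −0.02, turned positive after centring, and MTUS1 and MGLL were at 0.01 and 0.00.

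H10 chickens differed strongly among themselves in a few groups of genes, which were chosen after their values were seen. The median standard deviation of a probe set was 0.287 in H10 and 0.260 in the controls, and 41.8% of probe sets varied more in the controls. A set of 6 genes, called red fibre genes here, varied widely. MYL3, the myosin light chain of slow and cardiac muscle, read 10.88, 5.07, 7.40, 2.83, 12.20, 10.36, 3.62 and 12.04 in chickens 3, 11, 13, 15, 66, 67, 72 and 74. MB, the oxygen store myoglobin, ran from 4.82 in chicken 72 to 11.10 in chicken 3. MYH1G, a myosin heavy chain, read 12.69, 8.63, 9.06, 7.31, 12.41, 11.54, 8.48 and 12.71. Chickens 3, 66 and 74 were the 3 highest in 5 of the 6 genes picked, the exception being the carbonic anhydrase gene CA3A, and chickens 15 and 72 were the 2 lowest in MYL3, MB and MYH1G. The controls varied too, with MYL3 between 4.55 and 12.87 and a standard deviation of 2.94 against 3.83 in H10. CSRP3, a Z-disc protein, and CA3A varied more in the controls, with standard deviations of 2.91 and 2.64 against 2.16 and 2.43 in H10. Slow fibre genes were mixed. MYBPC1, the slow-type myosin-binding protein C, also had chickens 66, 74 and 3 as its 3 highest. None of TNNI1, TNNC1, ATP2A2 and ACTC1 did. Chicken 66 was highest in TNNI1 and ATP2A2, but chicken 15 was second in TNNI1, TNNC1 and ATP2A2 and highest in ACTC1. TNNC1, the slow troponin C, was lowest in chicken 3 and ACTC1, the cardiac actin, lowest in chicken 66. How much red muscle each sample contained is not given in the labels.

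In the interferon-induced genes examined, also chosen after their values were seen, chicken 66 was highest. MX1, an antiviral GTPase, read 1.90, 7.42, 5.60, 8.40, 9.27, 6.11, 7.64 and 5.93 in the order above, and IFIT5, which binds viral RNA, read 4.81, 7.86, 6.96, 8.83, 10.27, 7.09, 7.88 and 6.35. OASL, of the oligoadenylate synthetase family, was 10.39 in chicken 66 and 7.03 to 7.83 in the other 7. All 9 such genes were highest in chicken 66, a count that is no independent evidence given how they were chosen. Chicken 15 was second in MX1 and IFIT5, at 8.40 and 8.83. All 9 had a larger standard deviation in H10 than in the controls, 2.26 against 0.868 for MX1. For IRF7 the gap was small, at 0.291 against 0.258. The mean differences from all controls were 0.95 for MX1, 1.13 for IFIT5 and 0.51 for OASL, and without chicken 66 they were 0.56, 0.74 and 0.13. RRAD, a small GTPase that acts on calcium channels, separated the blocks of animal numbers, with 8.38, 9.13, 8.07 and 9.64 in chickens 3, 11, 13 and 15 and 7.60, 7.02, 5.61 and 5.17 in 66, 67, 72 and 74. Those blocks coincide with high and low chromosome W signal, so block and W signal cannot be told apart. The controls of the H10 number series did not show this split of RRAD by W signal. Between the blocks, 56 probe sets passed the limma test (0.27%), which also covered the 18 chromosome W probe sets that defined high and low W signal.

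**Figure D4:**
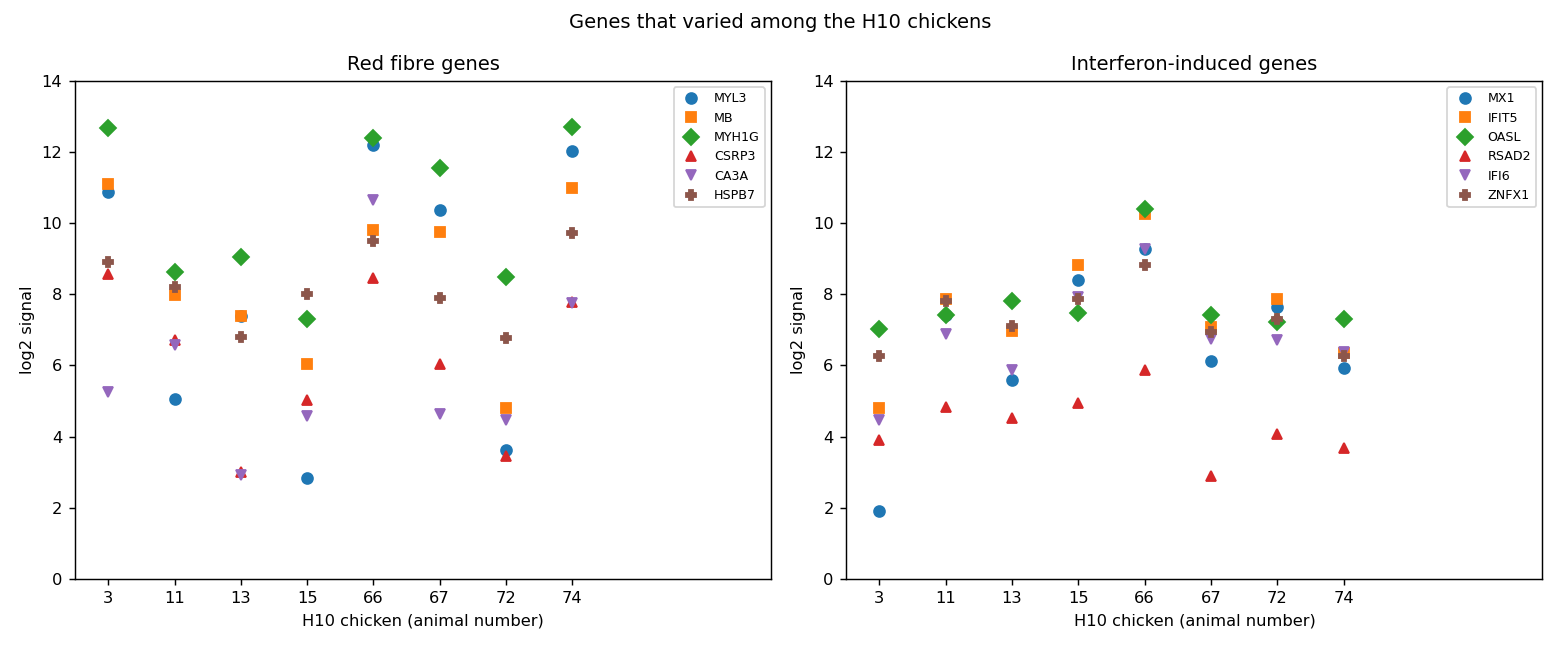
Log2 signal of 6 red fibre genes and 6 interferon-induced genes in each H10 chicken, by animal number. The genes were chosen after their values were seen. Chickens 3, 66 and 74 are the highest in 5 of the red fibre genes, and chicken 66 is the highest in each interferon-induced gene. The slow fibre genes TNNI1, TNNC1, ATP2A2 and ACTC1, not drawn, did not have these chickens as the 3 highest, while MYBPC1, also not drawn, did.

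The next comparison took the genes that differed in H10 embryos at ED10 and described them at D35, in other animals of the same treatment. The animal numbers of the H10 embryos formed a single run. Some C10 embryos carried numbers next to that run and the others numbers next to the L10 embryos. Treatment and animal number were thus not fully separated, and differences among the C10 embryos by number were not tested. In the embryos 27 probe sets passed the limma test for H10 minus C10 (0.13%), 14 higher (0.0676%) and 13 lower (0.0628%), 16 of them with a symbol. At D35 none of the 27 passed (0% of all probe sets did), and 1, TOMM7, had an unadjusted p at or below 0.05. Of the 14 higher in embryos, 12 were also above 0 at D35, with a median of 0.115, and 12 were within the H10 number series. Among these 14, the probe sets 15403705 and 15551255 hold identical values, so 26 of the 27 are distinct. The median of 0.115 is the value of that pair. Of the 13 lower in embryos, 9 were below 0, with a median of −0.018, and 6 within the series. These counts stand beside the 8728 probe sets above 0 and 11970 below among all.

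UQCR11, of respiratory chain complex III, was 0.32 higher in H10 embryos, and at D35 it read 10.71, 10.78 and 11.09 in H10 and 10.42, 10.50 and 11.05 in controls. All 8 H10 chickens were above the control mean with overlapping groups, and the D35 difference was 0.22, or 0.10 within the series. TOMM7 at D35 read 10.17, 10.46 and 10.67 against 9.95, 10.25 and 10.46, a difference of 0.17 ± 0.07 (SE; limma unadjusted p = 0.0176) and 0.08 within the series. BATF3, a transcription factor of dendritic cells, had an embryo difference of 0.64 and a D35 difference of 0.07. The cytochrome oxidase gene COX7A2 and the dehydrogenase gene DHRS4, higher by 0.31 and 0.26 in embryos, were at −0.08 and −0.04.

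On the lower side, MEGF9 went from −0.46 in embryos to −0.22 at D35 and ZNF609, which acts in myoblast proliferation in other species, from −0.31 to −0.22, but within the H10 number series MEGF9 was at −0.05 and ZNF609 at −0.00. SLITRK1, a neuronal membrane protein, went from −0.44 to −0.08 and B3GALT6, of the glycosaminoglycan linker, from −0.37 to −0.04. GLI3, a transcription factor of hedgehog signalling, went from −0.27 to 0.01, PRCC from −0.28 to 0.08, and the splicing cofactor SRRM1 from −0.27 to 0.04. RNF19A was at −0.25 in embryos and 0.02 at D35. XPNPEP3 (−0.25 in embryos), FIGN (−0.29) and YTHDF1 (−0.21) were at −0.02, −0.01 and −0.01 at D35, and these last 3 turned positive after centring, FIGN and YTHDF1 also after quantile normalization.

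**Figure D5:**
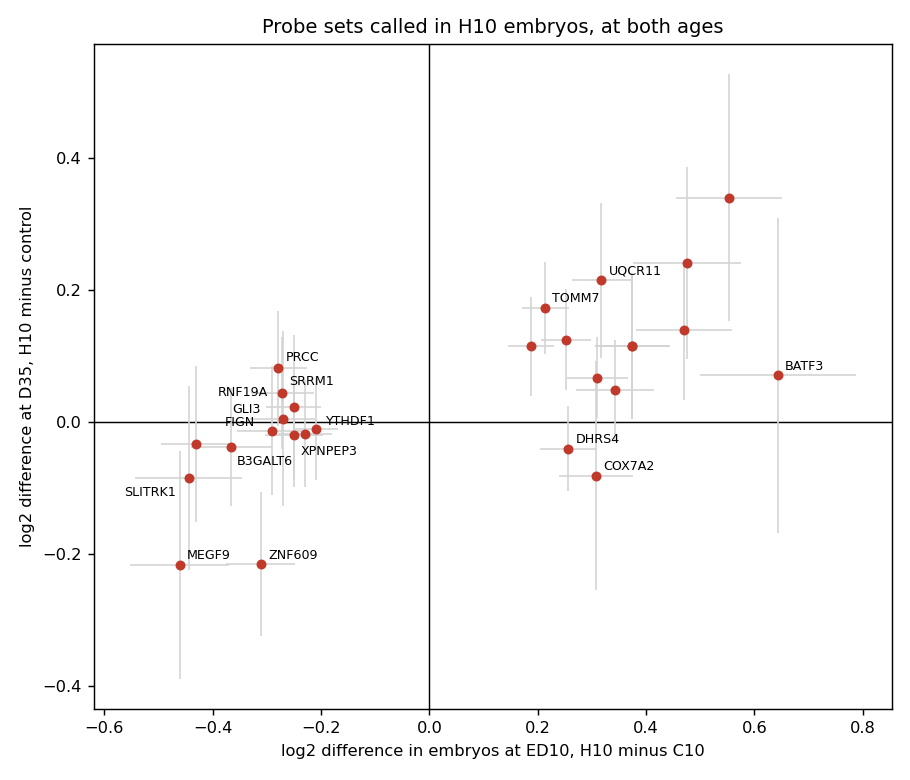
The 27 probe sets called in H10 embryos, by their log2 difference at ED10 (H10 minus C10, x axis) and at D35 (H10 minus control, y axis), with grey bars for standard errors. Of the 14 on the right 12 lie above 0 at D35, and of the 13 on the left 9 lie below 0. The probe sets 15403705 and 15551255 hold identical values and coincide.

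A direct comparison set H10 against H13, the same temperature in the late window. Chromosome W signal was high in H13 chickens 31, 34 and 43 and low in the other H13 chickens, while H10 held 4 of each. The animal numbers of H13, 31 to 60, lay between the blocks of H10 chickens. Window, W signal and number block were thus not fully separated. No control value enters the difference between H10 and H13, though the controls and low-temperature groups contribute to the estimate of the spread. The comparison called 1 probe set (0.00483%), 15453925, which carries no symbol, and 780 had an unadjusted p at or below 0.05 (3.77%). That probe set read 9.68, 9.39, 9.82, 9.80, 9.88, 10.06, 9.78 and 9.80 in H10 and 10.03, 9.69, 10.88, 10.78, 10.85, 10.94, 11.05 and 10.88 in H13. The first pair of H13 values, of chickens 31 and 34, overlapped with H10, and the other 6 lay above it. Chickens 31 and 34 were also the H13 chickens with the highest mean of the liver genes, 6.27 and 5.48. The difference was −0.86 ± 0.16 (SE; limma adjusted p = 0.0497), and the call was lost after quantile normalization, after centring and with only both groups in the fit.

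KCTD19 read 5.06 to 5.48 in H10 and 4.53 to 4.97 in H13. These values lay near or below the background median of 5.33. The difference of 0.52 ± 0.12 (SE) had a limma adjusted p of 0.476, and how many of all probe sets separate H10 from H13 was not counted. The homeobox gene HOXC11, at 0.72, TCP11, at 0.38, and the splicing factor SNU13, at 0.22, were among the other higher genes with the smallest p. The neuropeptide NPY was at −0.25, MSMB at −0.65, and the mesoderm factor MESP1 at −0.54, with H10 chicken 67 apart at 8.21. Extracellular matrix genes were lower in H10 than in H13 in 30 of 32, with a median of −0.141, beside −0.011 over all probe sets. Cell cycle genes were lower in 30 of 39 (−0.161), citrate cycle and fatty acid genes in 24 of 30 (−0.083) and respiratory chain genes in 43 of 54 (−0.063). Adipocyte markers were lower in 13 of 18 (−0.151). None of these list genes passed the test, and these medians were not adjusted for W signal. Of the genes above, POSTN was at 0.59 in H10 and 0.71 in H13 against the controls that both comparisons share, and EMP1 at 0.68 and 0.75.

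The comparison with L10 set both temperatures of the early window against each other. It called 46 probe sets (0.222%), 1 higher in H10 and 45 lower, and 1795 had an unadjusted p at or below 0.05 (8.67%). Of the 46, 36 carried a symbol and 20 were on the liver list, with FGG at −7.34, ALB at −7.37, FGA at −7.09, FGB at −6.51 and PLG at −6.35. Called genes not on that list spanned large and small differences. SULT6B1L was at −8.58, LBFABP at −5.04 and AvBD9 at −4.89, while BTLA was at −0.45 and KMT2D at −0.38. The count of 20 thus depends on how the list was drawn up. The higher share was 2.17% as deposited and 15.5% after quantile normalization, with 58 calls. With the mean of the liver genes as a covariate none passed. That mean contains the 20 called liver genes and did not overlap between H10 (3.86 to 4.56) and L10 (6.07 to 9.94). This fit therefore cannot separate liver signal from other differences between the groups. All L10 chickens stand in the second number series, so number series and temperature cannot be told apart.

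DRG2, a GTP-binding protein, was the 1 gene called higher in H10 than in L10. It read 9.38 to 9.79 in H10 and 8.89 to 9.39 in L10, which overlapped at their ends, and differed by 0.36 ± 0.08 (SE; limma adjusted p = 0.0473). The call was lost in 13 of 16 fits that left out 1 chicken, with arrayWeights, with only both groups in the fit and with the W signal as a covariate. OLIG2 at 0.46, PRRX2, a homeobox gene of mesenchyme, at 0.54, and CREB3L1, a transcription factor of collagen secretion, at 0.81 did not pass. Extracellular matrix genes were higher in H10 than in L10 in 29 of 32, with a median of 0.311 beside 0.015 over all probe sets, and tendon markers in 6 of 7 (0.381). Slow fibre genes were lower in 13 of 17, with −0.571, and oxidative and thyroid regulators in 23 of 28, with −0.143. Adipocyte markers were lower in 14 of 18, with −0.262. Controls of the H10 number series minus the other 4 controls gave −0.359 for slow fibre, −0.218 for oxidative and −0.370 for adipocyte genes. The same difference was −0.022 for matrix genes and 0.162 for tendon markers. Number series and temperature cannot be told apart in any of these values. Matrix genes of H10 thus lay below H13 and above L10 on the median, each by a direct comparison.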

How the data were processed

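Hind muscle mRNA was measured on Affymetrix chicken gene arrays, 1 chicken per array. The deposited values were log2 signals normalized by the authors, with GCOS 1.1.1 in the submitters' processing notes. The normalization method and the genome build are not given in the sources used here. The number of arrays limits the precision. After 98 control probe sets were left out, 20706 were tested without a filter on level, including 6 without variation and 1650 whose D35 values equal those of another. With limma 3.58.1 in R 4.3.3, group means were fitted over 40 D35 arrays in 5 groups (35 residual degrees of freedom), and over 48 embryo arrays, with eBayes and Benjamini-Hochberg adjustment (threshold 0.05). Fits within the H10 number series left out the other 4 controls (36 arrays). Tests between both sets of controls, and between H10 chickens with high and low W signal, were each fitted on those 8 arrays alone. The former had W signal class as a covariate. The series' methods adjusted for slaughter weight, which is not among the labels. For genes with several probe sets the one with the highest mean was used.

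Members and gene lists were chosen with earlier results of these data known. The genes named were those past the threshold, or otherwise up to 12 per direction with the smallest p and at least 7 of 8 H10 chickens on that side of the control mean, up to 4 per list, those called in embryos, those of the study's text, and up to 6 per direction against H13 and L10. The steps were tested on simulated data. Alternatives were other scalings, other controls, covariates, other variance settings and leaving out single arrays. Python 3.11.15 with matplotlib 3.10.9 drew the plots.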

Additional observations from a re-analysis of the deposited data

Results flagged for a closer look

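In each named gene, the highest or lowest chicken of H10 and of the controls was set against the other 7 by its gap as a share of the whole range, with Dixon's critical value as the limit. Of 232 gene and group pairs 20 exceeded it, 9 in H10 and 11 in the controls. Chance flags about 1 in 20 groups, but genes chosen because they varied among H10 chickens were among those tested.

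Among H10 chickens, 66 stood apart in OASL at 10.39, TNNI1 at 10.56 and XPNPEP3 at 9.55. Chicken 74 stood apart in UQCR11 at 11.09 and DHRS4 at 7.89, and 72 in CD8BP at 5.43 and IGF1R at 6.56. YTHDF1 was 9.12 in chicken 11 and MESP1 8.21 in chicken 67.

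Among controls, 77 stood apart in COL1A2 at 12.44, SERPINH1 at 10.95 and FMOD at 9.74, 3 genes of collagen or its assembly. Control 70 stood apart in TNNI1 at 11.86 and CRYAB at 11.54, control 30 in RPL35A at 7.83 and GLI3 at 7.42, and control 68 in CD8A at 7.27 and IFIT5 at 8.11. DHRS4 was 7.92 in control 90 and MESP1 7.11 in control 81.

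Direct tests between treatments also differed. H10 minus H13 had 1 call, the probe set 15453925 at −0.86. H10 minus L10 had 46, among them FGG at −7.34, PLG at −6.35, ALB at −7.37, FGA at −7.09, SULT6B1L at −8.58, FGB at −6.51 and DRG2 at 0.36.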

How the results depend on the processing

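The count of calls for H10 minus control was 0 under all alternatives run except those given next. Against only the 2 C10 controls it was 2, the probe sets 15555029 at 0.85 and 15381601 at 2.16 (limma adjusted p = 0.0348), which carry no symbol, and without adjustment it was 586. Leaving out single arrays gave 0 to 0 calls. In the fit of all D35 arrays, the contrast of H10 with controls among chickens with low W signal called 1. H10 minus H13 had 0 calls after quantile normalization, after centring and with only both groups in the fit, and 3 without H13 chickens 31 and 34. Leaving out single arrays gave 0 to 2, with 13 of 16 giving 0. The call held only without H13 31, H13 34 or H10 67, where MESP1 passed at −0.66. H10 minus L10 had 0 calls with the liver mean as a covariate, a mean that contains the called liver genes themselves. It had 30 to 51 when single arrays were left out, 30 without L10 64. Quantile normalization gave 58 and centring 51. Of 104 named differences from the controls, 11 changed sign within the H10 number series, 5 after centring and 2 after quantile normalization. No paired analysis was possible because H10 chickens and controls share no replicate numbers. The liver covariate, the omission of chickens 31 and 34, and the use of number series and W signal were chosen after the data were seen. With 8 chickens per group and levels often near background, differences as small as those of most lists cannot be resolved gene by gene.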

Other observations

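Of the 56 probe sets that differed between H10 chickens with high and low chromosome W signal, 51 were higher with high W signal. The 18 chromosome W probe sets that defined the split were among those tested, so calls among them followed from the split. How many of the 56 they make up was not counted. Among chickens with low W signal, 1 probe set was called higher in H10 than in the controls in the fit of all D35 arrays (limma adjusted p = 0.0354), and 0 when those chickens alone were fitted, where 926 had an unadjusted p at or below 0.05. The first 2 principal components of the D35 arrays held 15.1% and 10.5% of the variance. On the second, H10 chickens ranged from 1.71 to 47.94, the 4 controls of the H10 number series from 15.6 to 35.0, and the other 4 controls from −22.4 to −17.1. The myogenic regulator MYOD1 read 10.10, 10.28, 10.02, 9.78, 11.37, 10.79, 10.98 and 10.49 in chickens 3, 11, 13, 15, 66, 67, 72 and 74, with the 4 low values in the block of numbers 3 to 15. Of the controls of the H10 number series, 29 and 30, with high W signal, read 5.90 and 5.10 in RRAD. Controls 77 and 90, with low W signal, read 6.33 and 6.70, so the split of the H10 chickens was not seen there. The other controls read 8.69, 6.86, 10.49 and 7.57.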
